A study of Arabidopsis thaliana with 75 samples.

Results

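Transcripts of the regulators of leaf cuticle formation were followed in Arabidopsis thaliana, the thale cress, after leaves had been cut with a blade. These regulators are 9 genes taken by name from the 32833 genes of the deposited table: SHN1 (AT1G15360), SHN2 (AT5G11190), SHN3 (AT5G25390), MYB16 (AT5G15310), MYB106 (AT3G01140), MYB30 (AT3G28910), MYB94 (AT3G47600), MYB96 (AT5G62470) and DEWAX (AT5G61590). All 9 had a row in the table, and 8 passed the filter on low counts. SHN1 was at 0 in 75 of 75 libraries and was not tested.

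The leaves were the 8th leaf of plants aged 4 weeks, in 3 genotypes labelled WT, gpat4 gpat8 and rbohE. Wild type was collected at 0h, 1h, 2h, 4h, 6h, 12h, 18h, 1D, 2D, 3D, 4D and 5D, where h is hours and D is days after the cut. The gpat4 gpat8 leaves were sampled at 7 of these times (0h, 2h, 4h and 12h, then 1D, 2D and 3D). The rbohE leaves were sampled at 6 (0h, 2h and 4h, then 1D, 3D and 5D). All 25 groups had 3 libraries, and the labels give the same wound treatment for all of them, 0h included. GPAT4 and GPAT8 encode acyltransferases that make cutin precursors, and RBOHE encodes an oxidase of the plasma membrane that makes superoxide. The labels name neither the alleles nor the ecotype, and do not say whether the 3 libraries of a group came from separate plants, so p-values measure the spread between these libraries. Uncut leaves of matching later times were not analysed here, and time since the cut and time of day cannot be told apart. By its title, the series is about barriers formed after wounding and the identity of the epidermis, the cell layer that carries the cuticle.

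The cuticle is a film of cutin, a polyester, filled and covered with waxes made from very-long-chain fatty acids. SHN1, SHN2 and SHN3 are ERF-type activators known to raise cutin and wax genes when overexpressed, and MYB16 and MYB106 are MIXTA-type MYB proteins that act on epidermal cell shape and on cuticle genes together with SHN1. MYB30, MYB94 and MYB96 belong to another MYB branch and activate genes of very-long-chain fatty acid and wax synthesis. MYB30 is also known from cell death in the defence against bacteria, and MYB96 from responses to drought and abscisic acid. DEWAX is an ERF-type repressor of wax genes, known to accumulate in the dark.

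Depth did not limit the more abundant regulators. Libraries summed to between 46045188 and 67376782 counts (median 61143105). Were each count 1 fragment, a count of 0 would allow up to 3 counts. These were worth 0.0393 to 0.0749 CPM (counts-per-million, scaled between libraries by TMM, the trimmed mean of M values). As 1 fragment was worth about 2.62 counts, the limit was higher than this by about that factor. The genes named in the mutant labels went with those labels only in part. GPAT4 was lower in leaves labelled gpat4 gpat8 at 2h, with 84.4 ± 4.9 CPM against 252 ± 9 in wild type (SD, n = 3), but did not differ by call at 0h, and GPAT8 was higher there from 4h to 3D, for example at 2D with 13.9 ± 3.88 against 2.62 ± 0.68 CPM. RBOHE was lower in the libraries labelled rbohE at 3D, with 2.73 ± 0.13 against 45.7 ± 3.7 CPM, and low in both genotypes at 0h. The 0h groups also differed in clock genes: CCA1, a morning gene of the circadian clock, had 10.2 ± 2.2 CPM in wild type at 0h, 158 ± 19 at 1h, 7.47 at 1D, but 289 ± 39 in gpat4 gpat8 at 0h. TOC1, an evening gene, had 139 ± 11 CPM in wild type at 0h, 61.9 at 1h and 15.2 ± 3.3 in gpat4 gpat8 at 0h. LHY, another morning gene, had 8.12 ± 1.38 against 216 ± 24.7 CPM in these 2 groups of 0h, and GI, an evening gene, 65.5 ± 6.37 against 30.6 ± 7.14. The sum of 5 epidermal markers had group means of 262.9 to 436.3 CPM in wild type and at least 4 of the markers above 0 in every library, whereas the summed mesophyll markers ranged from 974.1 at 4h to 4227 at 0h. The part of the clock and of tissue make-up in the results that follow was not tested, and in whole leaves fewer cells of a type and less RNA per cell cannot be told apart.

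The regulators covered a wide range of levels. On the CPM scale per kilobase of exons, DEWAX stood highest in wild type at 0h with a level of 101.8 ± 13.3 (SD, n = 3), followed by MYB16 with 17.9 ± 3.40, MYB96 with 17.7, MYB94 with 12.5 and MYB30 with 6.12. SHN3 and MYB106 were low, with levels of 2.08 and 1.12 CPM per kilobase, and SHN2 had 0.221. By 2h MYB96 stood highest with a level of 191.9 CPM per kilobase and DEWAX had 12.3, and by 5D DEWAX stood highest again with 180.7. SHN2 stayed near the detection limit throughout, with at most 0.695 CPM in a library, 0 counts in 18 of 75 libraries and at most 3 counts in 30.

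**Figure D1:**
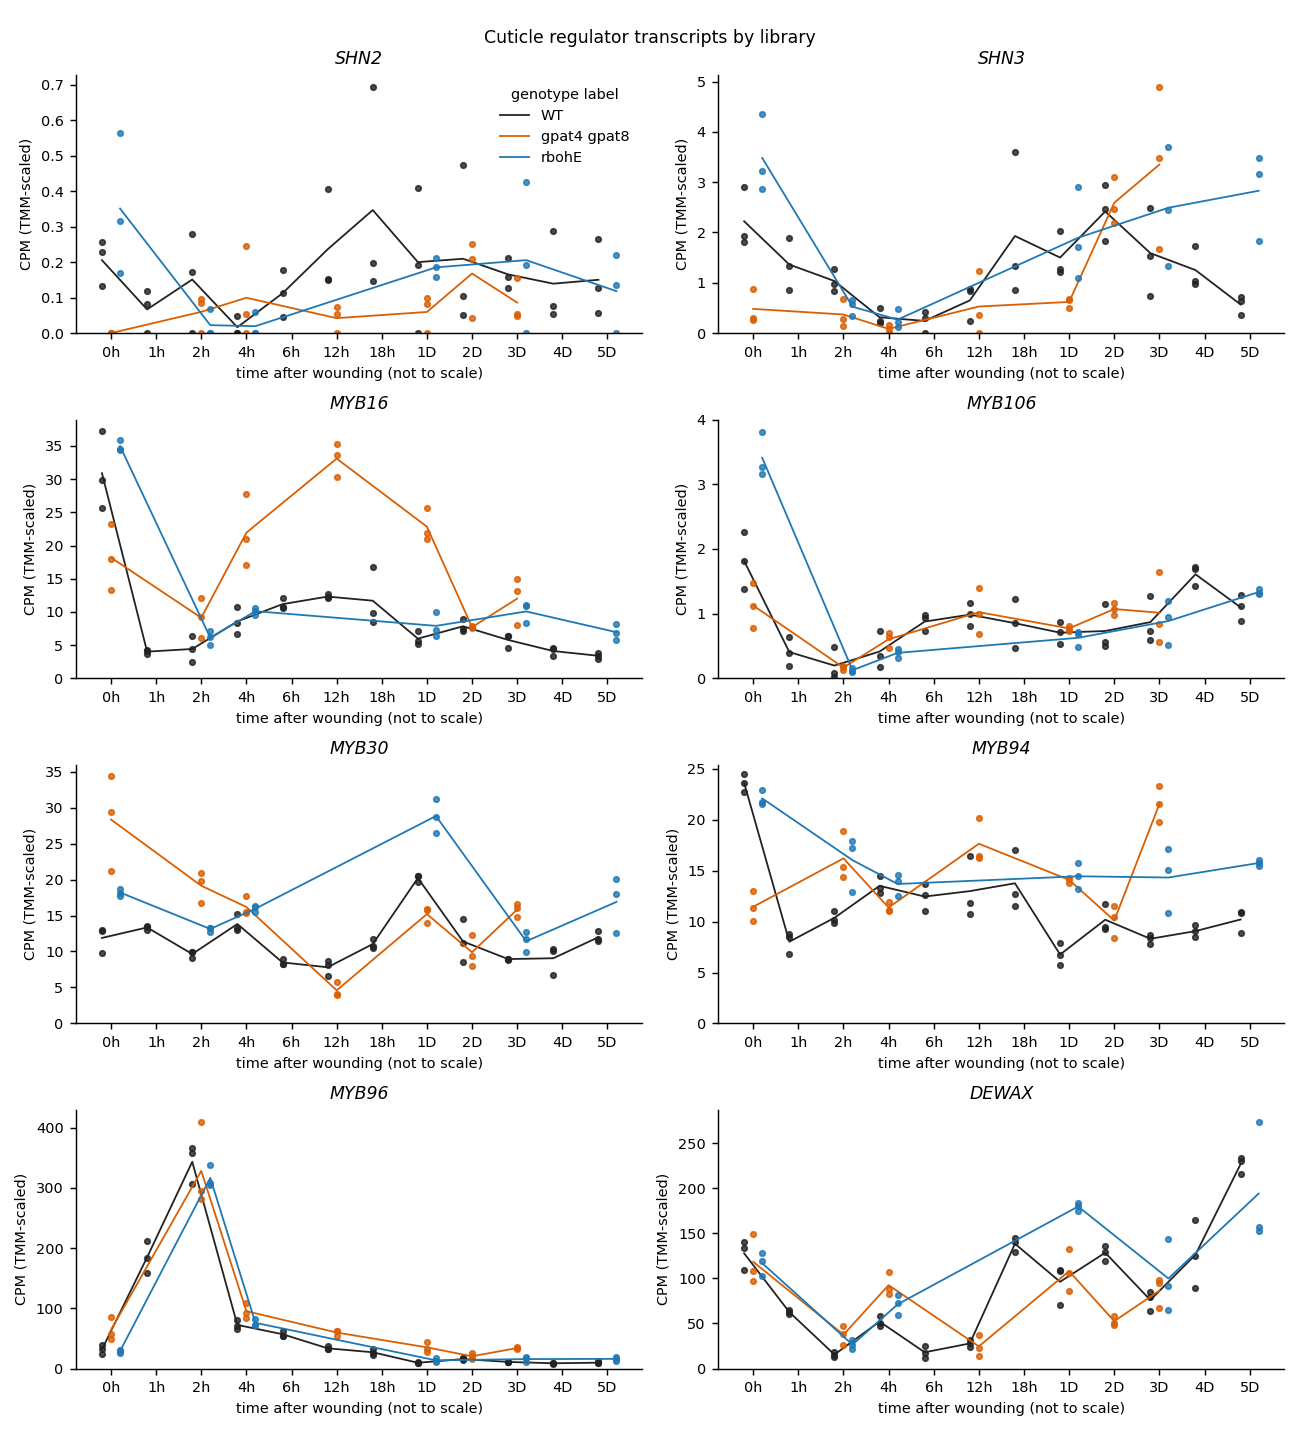
Level of each of 8 regulators in CPM (vertical axis) against the time after wounding (horizontal axis), with 1 point per library and lines through the group means of wild type, gpat4 gpat8 and rbohE. MYB96 peaked at 2h in all 3 genotypes, MYB16 fell from its 0h level in wild type, and SHN1, at 0 in 75 libraries, is not drawn.

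In wild type more of the calls against 0h were lower than higher, and MYB96 was the one regulator called higher. Over the 11 times after 0h, 44 of the 88 gene and time pairs were called, 3 of them higher and 41 lower, against 22% of pairs over all 23475 genes tested, 11.5% higher and 10.5% lower. A gene was called where edgeR's quasi-likelihood test gave a Benjamini-Hochberg adjusted p under 0.05 and the fitted log2 fold change was at least 1 in size. All 11 comparisons share the 3 libraries of 0h, so their calls are not separate evidence. At 2h, when 38.2% of all genes were called, MYB96 was called higher (18.2% of all genes) and MYB94, MYB16, MYB106 and DEWAX lower (20%). The median log2 fold change of the 8 tested regulators was -1.29 at 1h, -1.14 at 2h and -1.57 at 4h, where the medians over all genes were -0.0977, -0.00886 and 0. At 1h 5 of 8 were called (33.6% of all genes), followed by 6 of 8 at 4h (27%), 4 at 6h (18.5%), 3 at 12h (16.5%) and 2 at 18h (16.5%). At 1D 4 of 8 were called (17.6% of all genes), and likewise 4 on day 2 (19.4%), 4 on day 3 (17.9%), 3 on day 4 (17.3%) and 4 on day 5 (19.2%).

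**Figure D2:**
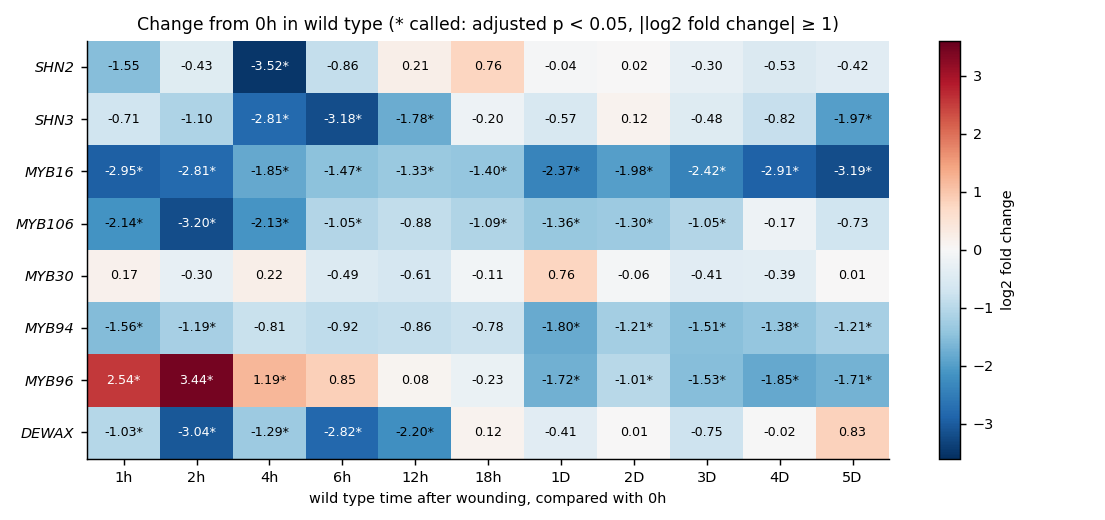
Log2 fold change of each of the 8 tested regulators (rows) at each wild type time (columns) against 0h, from 3 libraries a group, with colour from lower to higher and a star where edgeR's test called it. MYB96 turned from higher at 1h, 2h and 4h to lower from 1D on, MYB16 was lower at every time, MYB30 was called at none, and the values of SHN2 depend on the prior count.

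MYB96, an activator of wax genes, rose within the first hour and ended below its starting level. In wild type its 3 libraries held 38.3, 33.0 and 23.8 CPM at 0h, 159, 183 and 211 at 1h, and 367, 357 and 306 at 2h. They held 70.7, 65.3 and 81.3 CPM at 4h, and 8.52, 8.74 and 11.5 at 1D. The 1h, 2h and 4h libraries all lay above those of 0h, and those of 1D all lay below, with no overlap. The log2 fold change was 2.54 ± 0.20 (SE) at 1h and 3.44 ± 0.21 at 2h (edgeR adjusted p = 9.45e-17 and 1.62e-21). At 4h it was still 1.19 ± 0.19 (edgeR adjusted p = 2.94e-07), and at 6h, 12h and 18h it was not called, at 0.85, 0.08 and -0.23. From 1D the gene was called lower, with -1.72 ± 0.20 at 1D and -1.85 ± 0.20 at 4D (edgeR adjusted p = 1.1e-10 and 1.79e-11). The call at 2D, -1.01, depended on the library set: it was -0.847 and -0.978 without replicate 1 or 2 of 0h, -0.918 without replicate 2 of 2D, and -0.94 with DESeq2. In order of group means, 2h (343 CPM) stood above 1h (185), 4h (72.4) and 6h (57.0), each apart from the next, while 12h, 0h and 18h (33.6, 31.7 and 27.0 CPM) overlapped their neighbours, as did 3D, 5D, 1D and 4D at the bottom (11.0, 9.69, 9.60 and 8.77 CPM).

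MYB94, its close relative and likewise an activator of wax genes, fell where MYB96 rose. Its wild type libraries held 22.7, 24.5 and 23.7 CPM at 0h, 6.78, 8.53 and 8.76 at 1h, 11.0, 10.2 and 9.89 at 2h, and 6.68, 5.71 and 7.89 at 1D. Every library of the other 11 wild type times lay below the 3 of 0h. The log2 fold change was -1.56 ± 0.15 at 1h (edgeR adjusted p = 7.13e-14) and -1.80 ± 0.15 at 1D (edgeR adjusted p = 1.49e-15), with calls also at 2h and from 2D to 5D. Between 4h and 18h it was -0.78 to -0.92, under the fold asked of a call. The ratio of the CPM of MYB96 to that of MYB94 was 1.35 in wild type at 0h (range 1.01 to 1.69), 23.0 at 1h (21.5 to 24.1) and 33.1 at 2h, and was back to 1.42 at 1D. Libraries labelled rbohE followed with 1.31 at 0h, 20.1 at 2h and 0.934 at 1D. Those labelled gpat4 gpat8 started at 5.76 (range 4.39 to 8.45), above the range of both other 0h groups, and held 20.1 at 2h and 2.49 at 1D.

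**Figure D3:**
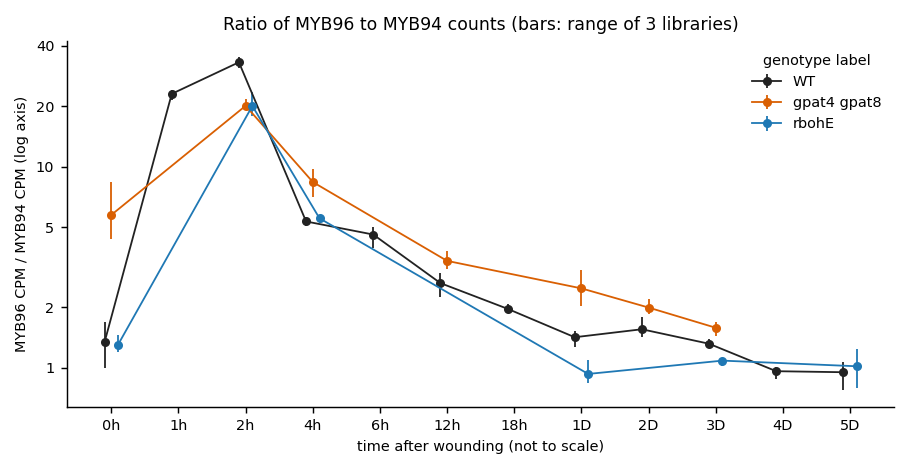
Ratio of the CPM of MYB96 to that of MYB94 (vertical log axis) against time after wounding, as the mean of 3 libraries with bars for their range, in each genotype. Wild type rose from 1.35 at 0h to 33.1 at 2h and was at 0.953 at 5D, and gpat4 gpat8 started at 5.76.

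The DNA around the starts of these 2 genes is shown because they share a long block there while their transcripts moved apart. MYB94 lies at 3:17539289-17541307 and MYB96 at 5:25078991-25081141, both on the minus strand of TAIR10.1. The windows below, from RefSeq, run from 250 bases before to 50 after the annotated start, 5′ to 3′ on the gene's strand (MYB94 chr3:17541258-17541557, MYB96 chr5:25081092-25081391). Capitals mark an L1 box, TAAATGCA, known as a motif bound by epidermal homeodomain factors, and a W-box, TTGACT, known as a motif bound by WRKY factors.
MYB94: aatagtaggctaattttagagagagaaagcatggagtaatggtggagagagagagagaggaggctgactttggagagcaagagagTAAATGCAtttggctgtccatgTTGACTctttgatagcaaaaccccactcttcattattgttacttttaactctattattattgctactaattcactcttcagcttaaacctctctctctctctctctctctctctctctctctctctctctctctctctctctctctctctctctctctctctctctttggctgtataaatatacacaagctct
MYB96: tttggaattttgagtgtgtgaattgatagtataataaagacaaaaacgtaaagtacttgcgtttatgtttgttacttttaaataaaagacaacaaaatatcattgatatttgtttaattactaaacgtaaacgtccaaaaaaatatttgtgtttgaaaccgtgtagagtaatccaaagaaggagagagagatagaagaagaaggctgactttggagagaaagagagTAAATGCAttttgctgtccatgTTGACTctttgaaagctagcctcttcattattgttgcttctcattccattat

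With the first transcribed base as position 0, a stretch of 79 bases aligned without gaps at -206 to -128 in MYB94 and at -65 to 13 in MYB96, with 71 bases identical (89.9%). Both capital motifs lay inside it, at -165 and -143 in MYB94 and at -24 and -2 in MYB96. Among the 36 pairs of the 9 windows, the next longest such block had 18 bases with 15 identical, between SHN2 and MYB106. The L1 box, searched on both strands, was found in these 2 of the 9 windows and in 5.1% of 27443 windows of the genome. A W-box (TTGACC or TTGACT, both strands) was in 4 of 9, namely SHN2, MYB106, MYB94 and MYB96, against 32.4% of all windows. The evening element AAAATATCT was in that of DEWAX alone (2.82% of all windows), and neither the G-box CACGTG (7.68%) nor the GCC box GCCGCC (2.57%) was in any of the 9. A match describes letters only. The transcripts of the pair are 81.7% identical over 409 bases, 21.6% of MYB94 and 22.9% of MYB96, so some fragments may have been assigned to the wrong copy.

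MYB30, the third MYB of this branch, changed little after wounding in wild type. Its libraries held 12.9, 9.84 and 12.9 CPM at 0h, 9.14, 9.88 and 9.93 at 2h, and 19.7, 20.4 and 20.5 at 1D. The 1D libraries lay above those of every other wild type time. Yet the log2 fold change of 0.76 ± 0.15 at 1D (edgeR adjusted p = 3.42e-05) stayed under the fold asked of a call, and at the other times it lay between -0.61 and 0.22.

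MYB16, a MIXTA-type activator of cuticle genes, showed the longest decrease. Its wild type libraries held 25.6, 29.8 and 37.2 CPM at 0h, 4.24, 4.07 and 3.72 at 1h, 12.7, 12.0 and 12.2 at 12h, and 3.85, 2.94 and 3.36 at 5D. All later libraries lay below the 3 of 0h, and the 12h libraries lay above those of 1h and 2h and those of 3D to 5D. The gene was called lower at all 11 times, by -2.95 ± 0.26 at 1h (edgeR adjusted p = 4.06e-15), -1.33 ± 0.24 at 12h (4.56e-06) and -3.19 ± 0.26 at 5D (8.74e-16). MYB16 and MYB94 had a Pearson correlation of 0.843 over the 12 wild type group means and 0.667 over all 25 groups, which share libraries and time points.

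MYB106, the second MIXTA-type regulator and also known as a regulator of trichome branching, was scarce. Its wild type libraries held 1.37, 1.81 and 2.25 CPM at 0h, 0.0866, 0.0192 and 0.481 at 2h, and 1.43, 1.68 and 1.71 at 4D. The 2h libraries lay below those of 0h, and those of 4D overlapped them. It was called lower at 2h with -3.20 ± 0.50 (edgeR adjusted p = 8.97e-08), as well as at all other times but 12h, 4D and 5D (-0.88, -0.17 and -0.73). The calls at 6h, 18h, 2D and 3D were each lost without any of 3 to 5 single libraries of the time or of 0h (adjusted p from 0.051 to 0.19), replicate 3 of 0h among them in every case. An lncRNA overlaps MYB106 on the opposite strand (AT3G01142) and another overlaps SHN2 (AT5G01855), and whether counting used the strand is not given in the sources used here. The transcripts of MYB106 and MYB16 are 87.5% identical over 265 bases, 16.4% of MYB106, so fragments of these low counts may be shared. Summed trichome markers were low in all groups, with means of 2.58 to 13.1 CPM.

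The SHN genes, activators of cutin genes, were scarce in these leaves. The wild type libraries of SHN3 held 1.94, 1.81 and 2.91 CPM at 0h, 0.198, 0.246 and 0.499 at 4h, 0, 0.299 and 0.428 at 6h, and 2.47, 2.95 and 1.83 at 2D. The 4h and 6h libraries lay below those of 0h, and those of 2D overlapped them. SHN3 was called lower at 4h with -2.81 ± 0.71 and at 6h with -3.18 ± 0.72 (edgeR adjusted p = 0.000514 and 0.000183). It was also called lower at 12h and 5D, by -1.78 ± 0.67 and -1.97 ± 0.67 (edgeR adjusted p = 0.023 and 0.0124). The 12h call was lost without replicate 3 of 0h (-1.54, adjusted p = 0.0815) and without replicate 2 of 12h (-1.37, 0.133), and the 5D call without replicate 3 of 5D (-1.72, 0.0651). SHN2 had 0.229, 0.256 and 0.132 CPM at 0h and 0.0496, 0 and 0 at 4h, the only wild type time at which it was called lower (edgeR adjusted p = 0.0322). That call was lost when either of 2 libraries of 0h or of 2 libraries of 4h was left out (adjusted p from 0.054 to 0.11). The transcripts of SHN2 and SHN3 are 80.1% identical over 46.5% of SHN2, so fragments of these low counts may be shared.

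DEWAX, the repressor of wax genes, had the most uneven course. Its wild type libraries held 109, 134 and 141 CPM at 0h, 62.4, 65.3 and 60.4 at 1h, 12.6, 15.3 and 18.6 at 2h, and 50.2, 47.3 and 58.9 at 4h. They held 12.0, 17.3 and 24.8 CPM at 6h, 28.3, 31.5 and 23.7 at 12h, 129.7, 145 and 141 at 18h, and 216, 231 and 234 at 5D. All libraries from 1h to 12h lay below those of 0h, those of 18h overlapped them, and those of 5D lay above. The log2 fold change was -3.04 ± 0.28 at 2h (edgeR adjusted p = 2.86e-14), -2.82 ± 0.28 at 6h (1.04e-12) and -2.20 ± 0.27 at 12h (9.5e-10). At 5D it was 0.83 and not called. The call at 1h, -1.03 ± 0.26 (edgeR adjusted p = 5e-04), fell under the fold asked with RLE size factors (-0.86), with DESeq2 (-0.86) and without replicate 2 or 3 of 0h (-0.994 and -0.953).

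Between neighbouring wild type times, 8 differences of the regulators were called, and 4 of them were those of DEWAX. Its log2 differences were -2.02 ± 0.27 from 1h to 2h (24.4% of all genes called), 1.75 ± 0.27 from 2h to 4h (22.8%), -1.53 ± 0.27 from 4h to 6h (5.67%) and 2.31 ± 0.27 from 12h to 18h (7.28%; edgeR adjusted p = 7.18e-10). MYB96 fell by 2.24 ± 0.20 from 2h to 4h (edgeR adjusted p = 9.58e-15) and by 1.49 ± 0.20 from 18h to 1D (5.04% of all genes called). SHN3 fell by 1.71 from 2h to 4h, and MYB94 by 1.03 from 18h to 1D. The SHN3 call was lost without replicate 2 or 3 of 2h or replicate 1 or 2 of 4h (adjusted p from 0.052 to 0.10), and the MYB94 call without replicate 3 of 18h (-0.843) or replicate 2 of 1D (-0.919).

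Because the clock genes of the 0h group differed from those of 1D, the wild type times were also set against 1D, a choice made after the data were seen. The root mean square of the log2 differences of the clock genes was 3.89 at 1h against 0h and 1.9 between 1D and 0h. Against 1D it was 4.15 for 1h, 2.34 for 2h, 0.266 for 4h, 1.1 for 6h, 2.89 for 12h and 1.4 for 18h, and between 0.386 and 0.683 on the later days, so in clock genes 1D was close to 4h but not to 1h, 2h or 12h. With 1D as the reference 22 of 80 pairs were called, in place of 44 of 88. By time, 1 regulator was higher and 0 lower at 1h, 1 and 3 at 2h, 1 and 2 at 4h, and 1 and 3 at 6h. They were 2 and 2 at 12h, 2 and 0 at 18h, and 0 and 0 at 2D. On the later days they were 0 and 1 at 3D, 1 and 1 at 4D, and 1 and 0 at 5D. The calls thus did not lean to lower as those against 0h did. MYB96 was higher at 1h with 4.27 ± 0.22 (edgeR adjusted p = 1.74e-24; 35.6% of all genes called) and at 2h with 5.16 ± 0.23 (3.14e-27; 36.2%), and stayed higher at 4h (20%), 6h (14.1%), 12h (10.7%) and 18h (5.04%), where it was 1.49. DEWAX was lower at 2h, 6h and 12h (-2.63, -2.42 and -1.79) and higher at 5D with 1.24 ± 0.26 (edgeR adjusted p = 9.05e-05; 13.3%). MYB16 and MYB94 were then not called lower at any time: MYB16 was -0.57 at 1h and -0.43 at 2h, and was called higher at 12h with 1.04. MYB30 was called lower at 5 times (2h, 6h and 12h, then 3D with 11.6% of all genes and 4D with 11.1%), by -1.07 to -1.37.

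Over the 25 groups, MYB96 ran opposite to DEWAX (Pearson r = -0.672, and -0.707 over the 12 wild type groups) and to MYB106 (-0.708 and -0.742), and hardly with MYB94 (0.192 and 0.18). Among 15160 tested genes with a mean of at least 5 CPM over the 75 libraries, those most like each regulator were found by Pearson correlation. The correlation was over the 25 group means of log2(CPM + 0.1). UBC9, a ubiquitin-conjugating enzyme, and A/N-InvC, an invertase, were most like MYB96 (r = 0.966 and 0.962). SQD1, of sulfolipid synthesis, and AT5G02670 were most like MYB106 (0.946 and 0.939), and AT2G28150 and NHL12 most like MYB16 (0.906 and 0.903). For DEWAX they were AT1G78265, which overlaps a gene on the other strand, and CYP71B7 (0.893 and 0.886). For SHN2 they were AT1G26650 and AT2G28810 (0.854 and 0.843), and for SHN3 MEE3 and MAN7 (0.831 and 0.825). Over the 25 groups MYB30 and MYB94 had no gene as close. NRT1:2 and AT3G19030 were most like MYB30 (0.772 and 0.767), and AT1G07200 and AT4G22360 most like MYB94 (0.714 and 0.683). Over the 12 wild type groups alone, the highest values were 0.866 for MYB30 and 0.934 for MYB94, with other genes. Groups share time points and the 0h condition, so these values describe likeness only.

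Against wild type at the same time, the libraries labelled gpat4 gpat8 were called different in 16 of 56 pairs, 12 higher and 4 lower, beside 10.9% of pairs over all genes (6.65% higher and 4.2% lower). MYB16, MYB94 and MYB96 account for 11 of the 16. MYB16 libraries held 23.3, 13.4 and 17.9 CPM at 0h, 17.0, 27.8 and 21.0 at 4h (wild type 6.69, 8.27 and 10.7), and 21.0, 21.8 and 25.7 at 1D (wild type 5.11, 5.68 and 7.11). The 2 genotypes did not overlap at 4h or 1D. The difference was 1.36 ± 0.24 at 4h (edgeR adjusted p = 3.09e-06; 19.2% of all genes called), 1.43 ± 0.24 at 12h (1.68e-06; 12.7%) and 1.94 ± 0.24 at 1D (2.96e-09; 11.4%). At 2h it was 1.05 ± 0.25 (edgeR adjusted p = 0.000727; 6.85%) with overlapping libraries and was 0.763 without replicate 1 of wild type and 0.785 without replicate 2 of the mutant. At 3D it was 1.05 ± 0.24 (edgeR adjusted p = 0.00129; 3.16%), and 0.986, 0.868 and 0.908 without replicate 1 or 3 of the mutant or replicate 3 of wild type. At 0h and 2D it was -0.77 and -0.03, not called.

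MYB94 turned from lower to higher in the libraries labelled gpat4 gpat8. It had 13.0, 11.3 and 10.0 CPM at 0h, 14.3, 14.1 and 13.8 at 1D and 23.3, 21.6 and 19.8 at 3D, beside wild type with 22.7, 24.5 and 23.7, then 6.68, 5.71 and 7.89, then 8.38, 8.73 and 7.83. No libraries of the 2 genotypes overlapped at these times. The difference was -1.04 ± 0.14 at 0h (edgeR adjusted p = 1.28e-08; 20.5% of all genes called), 1.06 ± 0.15 at 1D (2.45e-08) and 1.37 ± 0.15 at 3D (4.24e-10). The 0h call was -0.978 with RLE size factors and -0.958 without replicate 3 of the mutant, and the 1D call 0.952 without replicate 2 of wild type.

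MYB96 was higher in these libraries at 0h, 1D and 3D. It had 57.9, 49.7 and 84.9 CPM at 0h, 44.2, 33.3 and 28.0 at 1D, and 33.4, 36.4 and 32.3 at 3D, all above wild type at the same times. The difference was 1.02 ± 0.19 at 0h (edgeR adjusted p = 9.14e-06), 1.87 ± 0.20 at 1D (2.52e-11) and 1.63 ± 0.20 at 3D (1.2e-08). At the peak of 2h, with 409, 281 and 294 CPM, it was -0.07. The 0h call was 0.763 without replicate 3 of the mutant and 0.847 without replicate 3 of wild type.

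Of the other regulators, MYB30 was called at 0h alone, with 21.2, 29.4 and 34.4 CPM in gpat4 gpat8 and a difference of 1.25 ± 0.16 (edgeR adjusted p = 7.68e-10). At 2h it was 0.99, just under the fold asked. DEWAX was higher at 2h, with 26.2, 38.6 and 47.7 CPM and a difference of 1.28 ± 0.27 (edgeR adjusted p = 0.000171), and lower at 2D, with 48.8, 51.0 and 57.8 CPM against 119, 129.8 and 137 (-1.29 ± 0.26, 0.000998; 2.07% of all genes called). SHN3 was lower at 0h, with 0.264, 0.299 and 0.881 CPM (-2.20 ± 0.69, edgeR adjusted p = 0.00572). SHN2 had 0 counts in the 3 mutant libraries of 0h, at least 3.53-fold lower than wild type (edgeR adjusted p = 0.0061) with 3 counts per library as the floor. As 1 fragment was worth about 2.62 counts, that bound is too high by about this factor. MYB106 was called at no time.

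The libraries of 0h, 12h and 1D labelled gpat4 gpat8 carry an M in their descriptions whose meaning is not stated. Clock genes differed from wild type most in 2 of these groups, with root mean squares of 5.03 at 0h and 3.55 at 12h, against 0.649 at 1D and 0.291 to 0.832 at the other times. Summed mesophyll markers were 7025 CPM against 4227 at 0h, 8421 against 974.1 at 4h and 5718 against 1826 at 1D. At 2h they were 5815 against 2021, at 12h 4406 against 2295, at 2D 1574 against 1675 and at 3D 2571 against 1991. Summed xylem markers were 129.5 against 48.5 CPM at 1D. The part of these in the differences was not tested.

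**Figure D4:**
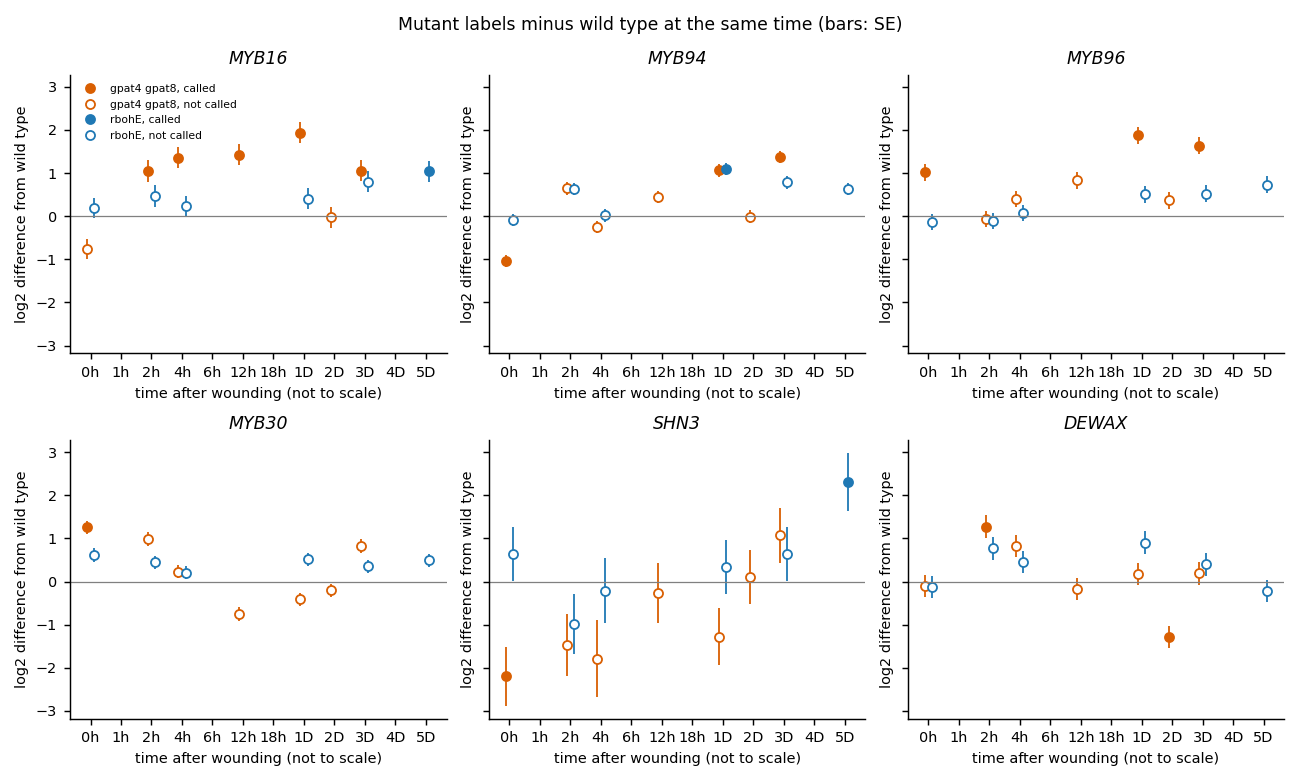
Log2 difference from wild type at the same time, ± SE, of 6 regulators (panels) against time for gpat4 gpat8 and rbohE, each from 3 libraries per group, with filled points where edgeR's test called it. MYB94 went from -1.04 at 0h to 1.37 at 3D in gpat4 gpat8, and 1 of the 6 genes differed by call in rbohE at 1D.

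Set against its own 0h group, gpat4 gpat8 had 15 of 48 pairs called, 6 higher and 9 lower, beside 25.7% over all genes. Of the 6, SHN2 at 4h, 2D and 3D made 3, against a 0h group at 0 counts. Its levels there were 1.71, 2.88 and 1.48 times the floor of 3 counts per library at 0h, values too high by about 2.62 times. So no increase is bounded at 4h or 3D, and hardly any at 2D. The 4h and 3D calls were lost with counts divided by that spacing. They were also lost without any single library of 0h (edgeR adjusted p from 0.052 to 0.083), without replicate 2 of 4h and without replicate 3 of 3D. MYB96 rose at 2h by 2.35 ± 0.20 (edgeR adjusted p = 8.83e-16; 36.1% of all genes called), and MYB106 and DEWAX fell by 2.75 and 1.66. MYB30 fell by 2.62 ± 0.16 at 12h (edgeR adjusted p = 1.03e-19; 16.5%), from 21.2, 29.4 and 34.4 CPM to 4.02, 4.00 and 5.78. MYB94 was called at no time, and no regulator was called at 1D (20.3% of all genes called). MYB16, lower at all times in wild type, was called lower here at 2D (-1.24, edgeR adjusted p = 1.11e-05; 27.9%). At 2h it just missed the fold asked, and was called with a replicate block (-1.01) and without any of 3 single libraries (down to -1.26). At 4h, 12h and 1D its means of 21.9, 33.1 and 22.8 CPM lay above the 18.2 of 0h and were not called. Without replicate 1 of 0h, MYB16 was called higher at 12h (1.08). SHN3 was lower at 4h (28.8%) and higher at 2D and 3D (24.7%), by -2.41, 2.42 and 2.79, of which the 4h call was lost without replicate 3 of 0h (-1.63) or replicate 1 of 4h (-1.94). The DEWAX call at 2D, -1.17, was -0.968 without replicate 2 of 0h. The 0h, 12h and 1D libraries carry the M given above, and those of 2h, 4h, 2D and 3D do not. Changes from 0h to these last times and the M cannot be told apart.

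The difference between the genotypes' changes from 0h was tested directly, as an interaction. It was called for 21 of 48 pairs in gpat4 gpat8, 15 higher and 6 lower, beside 17.5% over all genes. The share of all genes called was 17.9% by 2h, 22.4% by 4h, 12.5% by 12h and 16.5% by 1D, then 19.4% by 2D and 16.3% by 3D. MYB16 stood above the change of wild type by 1.81 at 2h to 2.70 at 1D, and MYB94 by 1.03 at 2D to 2.42 at 3D. MYB30 stood below it at 4h, 12h, 1D and 2D, by -1.03 to -2.02. These values hold the 0h differences given above. Those at 2h, 4h, 2D and 3D also compare mutant libraries with and without the M. Counted from 2h, at which the clock genes were closer, 5 of the 24 pairs were called, with no library carrying the M. None was called at 4h (8.86% of all genes), MYB16, MYB30 and DEWAX were lower at 2D (7.32%), and at 3D MYB96 was higher with 1.70 and DEWAX lower with -1.09 (4.63%), the latter lost without any of 7 libraries (adjusted p from 0.064 to 0.12).

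In the libraries labelled rbohE, few differences of the regulators from wild type were called. They were 3 of 48 pairs (6.25%), all higher, beside 3.11% over all genes. The median log2 difference of the 8 tested regulators was above 0 at every time, from 0.0999 at 4h to 0.56 at 5D. Medians over all genes were -0.0147 to 0.0135. MYB94 had 13.2, 14.5 and 15.7 CPM at 1D against 6.68, 5.71 and 7.89, with no overlap and a difference of 1.10 ± 0.15 (edgeR adjusted p = 7.02e-07; 0.831% of all genes called), which was 0.988 without replicate 2 of wild type. At 5D (1.64%), SHN3 had 3.48, 3.16 and 1.84 CPM against 0.635, 0.713 and 0.355 (2.32 ± 0.67, edgeR adjusted p = 0.026), and MYB16 had 8.22, 6.76 and 5.82 against 3.85, 2.94 and 3.36 (1.04 ± 0.25, 0.00507). The SHN3 call was lost without any of 5 of its 6 libraries (adjusted p from 0.061 to 0.12), and the MYB16 call was 0.899 without replicate 1 of the mutant and 0.946 without replicate 2 of wild type. MYB106 had 3.26, 3.81 and 3.16 CPM at 0h, all above wild type, but 0.91 ± 0.42 was not called (edgeR adjusted p = 0.0804; 11.7%).

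Against their own 0h group, 18 of 40 pairs were called in rbohE, 2 higher and 16 lower, beside 31.3% over all genes. MYB96 rose by 3.46 ± 0.21 at 2h (edgeR adjusted p = 8.13e-22; 45.3% of all genes called), from 31.5, 26.2 and 28.7 to 337, 305 and 308 CPM, and by 1.40 ± 0.19 at 4h (5.5e-09; 37.1%). MYB106 fell by 4.74 ± 0.53 at 2h (edgeR adjusted p = 1.1e-11), MYB16 fell at all 5 times (24.5% at 1D and at 5D, 25.2% at 3D), and DEWAX fell by 2.14 ± 0.27 at 2h. The lower level of MYB96 at 1D, -1.08 ± 0.19, was -0.95 without replicate 1 of 1D. MYB94, called lower in wild type at 7 of 11 times, was called at none in rbohE, with -0.46 to -0.69. The interaction was called for 2 of 40 pairs (7.99% over all genes), MYB94 and DEWAX at 1D, by 1.19 and 1.03 (7.65%), and the DEWAX call was lost without any of 8 libraries (adjusted p from 0.052 to 0.12).

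Genes of cutin and wax synthesis, which these regulators are known to act on, were read from 2 lists of 18 and 20 tested genes. In wild type at 2h, 10 cutin genes were called higher and 2 lower, and 10 wax genes higher and 2 lower, with median log2 fold changes of 1.27 and 1.18 (all genes -0.00886, with 18.2% higher and 20% lower). LACS2, an acyl-CoA synthetase needed for cutin, went from 18.0 ± 0.59 to 60.2 ± 9.9 CPM at 2h and 191 ± 12 at 3D (3.41 ± 0.20, edgeR adjusted p = 4.84e-21). GPAT6, a cutin acyltransferase, went from 3.35 ± 0.85 to 54.9 ± 3.9 CPM at 3D (4.03 ± 0.23, edgeR adjusted p = 1.39e-21), and CYP86A4, a fatty acid hydroxylase, from 0.682 ± 0.59 to 5.36 ± 0.56 at 2h. CYP77A6, another hydroxylase of cutin synthesis, fell from 2.33 to 0.773 CPM at 2h (-1.59 ± 0.26). LTL1, a lipase of the GDSL type, had 0.717 to 2.44 CPM at 0h and was called lower at 1D and 3D, with at most 0.103 and 0.157 CPM, where its fitted fold change depends on the prior count. At 3D 6 cutin genes were higher and 2 lower (10.6% and 7.34% of all genes).

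More wax genes were called lower than higher at the later times: 1 was higher and 8 lower at 2D (10.7% and 8.68% of all genes), and 5 were higher and 7 lower at 3D (median -0.648). CER3, of alkane synthesis, had 110 ± 33 CPM at 0h, 251 ± 18 at 2h (1.19) and 24.6 ± 1.15 at 3D (-2.15, edgeR adjusted p = 4.52e-17). CER6, a condensing enzyme of very-long-chain fatty acids, had 639 ± 94 at 0h and 323 ± 17 CPM at 3D, which was not called (-0.99), while KCS2, another condensing enzyme, whose gene overlaps others on the opposite strand, had 0.263 to 15.7 CPM at 0h and 112 ± 7 at 3D (3.91 ± 0.46). CER1, the partner of CER3, ranged from 0 to 22.9 CPM between the libraries of 0h and reached 62.5 ± 15 at 12h (2.68). AT1G02190 of the wax list had at most 0.0916 CPM at 0h and 0.844 to 2.01 at 2h and was called higher. WSD1, a wax ester synthase, was lower at 2h (-2.40) with libraries that overlapped those of 0h, and was at 0 in all libraries of 3D, 4D and 5D.

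**Figure D5:**
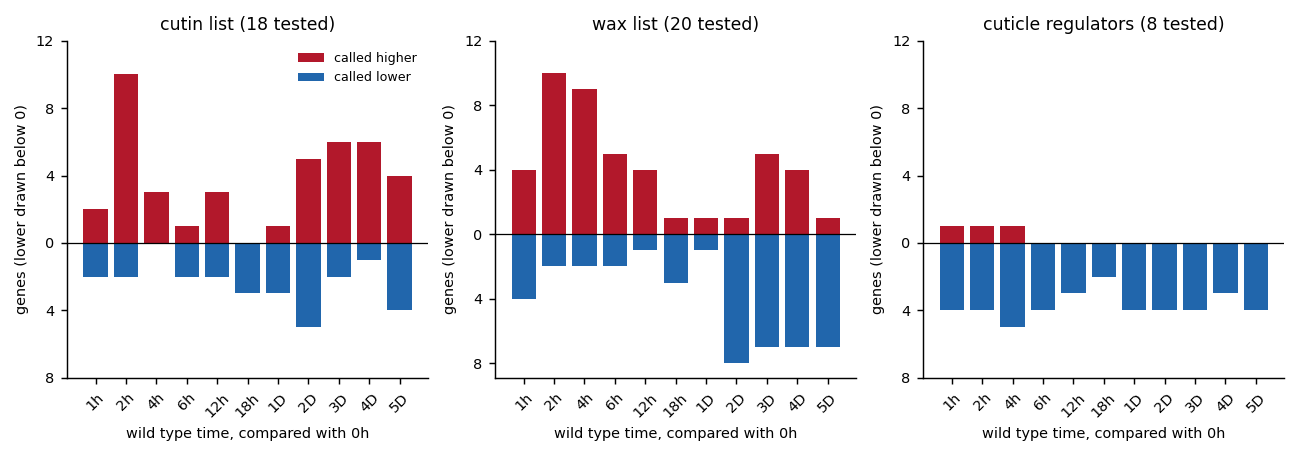
Number of genes called higher (bars above 0) and lower (bars below 0) against 0h at each wild type time, for 18 cutin genes, 20 wax genes and the 8 tested cuticle regulators, by edgeR's test. At 2h 10 genes of each synthesis list were higher while 4 of the 8 regulators were lower, and at 2D 8 wax genes were lower.

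In the libraries labelled gpat4 gpat8 the synthesis genes stood above wild type at 4h, with 11 cutin genes higher and 1 lower and 11 wax genes higher and none lower (medians 1.28 and 1.10), beside 11.8% and 7.39% of all genes. The cutin list takes in GPAT4 and GPAT8, the genes named in the label, and GPAT8 was higher here as given above. CER1 held 271 ± 42 CPM against 33.7 ± 8.6 (3.01 ± 0.57, edgeR adjusted p = 1.33e-05), WSD1 17.3 ± 6.67 against 0.584 ± 0.19, LACS2 115 ± 23 against 31.7 ± 2.1, and ACLA2, of ATP-citrate lyase, was higher by 1.88. CER6 was higher by 1.02 ± 0.09 and CER3 by 1.36. At 12h 6 cutin genes were higher and 1 lower, and 7 wax genes were higher (12.7% of all genes called). At 0h, where MYB94 and SHN3 were lower and MYB96 and MYB30 higher, 1 cutin gene was higher and 1 lower and 2 wax genes were higher (20.5% of all genes called). These 0h counts rest on few libraries: 4 cutin genes were called without replicate 3 of either genotype, and 1 wax gene without replicate 3 of either or 4 without replicate 1 of wild type. PEL3, of cuticle formation, had 1.96 against 0.775 CPM at 0h (1.34). LACS1, an acyl-CoA synthetase, had 9.66 ± 2.1 CPM at 0h against 39.3 in wild type (-2.02 ± 0.19), and KCS12, a condensing enzyme, had 26.2 ± 7.9 against 2.52 ± 0.72 (3.38 ± 0.37). Mesophyll markers and the clock moved with these groups as given above, and their part was not tested.

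In rbohE 6 cutin genes were higher than wild type at 0h (median 0.888), and 1 wax gene was higher and 2 lower, beside 11.7% of all genes called. No regulator was called there. The wax count was 1 to 5 with single libraries of wild type left out. KCS12 had 17.6 CPM (2.80), CER1 had 1.24 against 9.69 with overlapping libraries (-2.97), and the cutin gene with the largest increase was GPAT8 at 31.5 ± 5.5 CPM higher by 2.12. Summed epidermal markers were 630 CPM there against 427.9 in wild type, and summed mesophyll markers 9691 against 4227, and their part was not tested. From 2h on, at most 1 gene of each list was called, beside 1.78% of all genes at 2h, 2.19% at 4h and 0.498% at 3D. The share at 3D rests on 117 genes, which became 43 to 225 with 1 library left out and 11 in a fit of those groups alone. At 2h 419 genes became 219 in such a fit and 265 without replicate 1 of wild type, and at 4h 513 became 316 without replicate 2 of wild type.

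Among 7 close relatives of the regulators, 3 were called lower in wild type at 2h and none higher (20% and 18.2% of all genes). AT5G07580, the closest copy of DEWAX in sequence (77.3% identical over 45.6% of DEWAX), went from 84.3 ± 15.7 to 11.4 ± 2.5 CPM at 2h (-2.89 ± 0.25), close to the -3.04 ± 0.28 of DEWAX. MYB31, a further MYB of the MYB30 branch, had 15.3 ± 1.25 CPM in wild type at 0h, 2.78 ± 0.95 in gpat4 gpat8 (-2.45 ± 0.17) and 5.76 ± 1.2 in rbohE (-1.41). AT5G51190, which overlaps a gene on the opposite strand, was at 0 in wild type at 0h and at 0 to 3.41 CPM in gpat4 gpat8. ESE3, an ERF-type factor, had 0.893 ± 1.05 CPM at 0h in wild type, 4.61 at 1D (2.36) and 6.82 at 0h in rbohE (2.92).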

How the data were processed

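Messenger RNA of wounded leaves was sequenced in 75 libraries, prepared per the labels with a stranded mRNA kit. The authors deposited 1 table of estimated counts, which were whole numbers and not scaled. Per the submitters' processing notes, Trimmomatic 0.39, HISAT2 2.2.1, StringTie 1.3.4, edgeR 3.19 and the build TAIR10 were used. Their order and settings, and whether counting used the strand, are not given in the sources used here. The low values had a spacing of 2.62, so 1 fragment was worth about that many counts, and the counts overstate the fragments.

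Columns were matched to libraries by name, with 0 left over, and groups follow the genotype and time of the sample titles. No 2 replicates agreed within sampling noise (chi-square per degree of freedom at least 10.9), and all were kept. Counts were scaled by TMM and tested with edgeR 4.0.16 (glmQLFit with robust estimation, glmQLFTest) in R 4.3.3, in 1 fit of 75 libraries with a coefficient per group. The filter filterByExpr, with a minimum count of 10 and total of 15, kept 23475 genes and left out 9358. A call needed a Benjamini-Hochberg adjusted p under 0.05 over all genes tested and an absolute log2 fold change of at least 1. Fitted fold changes used a prior count of 0.125, on which those of genes near 0 depend. The standard error (SE) was derived from the fold change and its F statistic. Interactions are differences between the changes of 2 genotypes. Intervals, floors and tests do not cover PCR copies, which were not marked. The scripts were tested on simulated data.

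The regulators, the gene lists and the tests were chosen with earlier results of these data known. Genes named beside the regulators are GPAT4, GPAT8, RBOHE, 4 clock genes, known targets (LACS2, CYP86A4, CER1, CER6, WSD1, CER3, ACLA2), and, in the cutin, wax and relatives lists, the called genes with the largest increase and decrease in wild type at 2h, 1D and 3D and in each mutant at 0h. These last needed a mean of 50 counts in a group. The 2 genes most like each regulator over the 25 groups complete the rule. Positions, names and windows came from RefSeq (TAIR10.1), where 32548 IDs were found, and sequence identity from BLAST 2.17.0. Alternatives were RLE size factors, DESeq2 1.42.0, other filters, counts divided by the spacing, fits of only the groups compared, a replicate block, adjusted p alone and leaving out each library. Runs with a library left out kept the negative binomial spread estimated from all libraries and refitted the quasi-likelihood spread. Wild type against 1D was added after the data were seen.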

Additional observations from a re-analysis of the deposited data

Results flagged for a closer look

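The results listed here are those where the change of a mutant and the change of wild type over the same span differed by edgeR's interaction test. All values are differences of log2 fold changes, mutant minus wild type, and those from 0h share the 0h libraries of both genotypes. Those of gpat4 gpat8 from 0h to 2h, 4h, 2D and 3D also compare mutant libraries with and without the M in their descriptions.

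In gpat4 gpat8, MYB16 stood above the change of wild type from 0h, with 1.81 (2h), 2.12 (4h), 2.19 (12h), 2.70 (1D) and 1.82 (3D). Its mutant group means were 18.2 CPM at 0h, 9.11 at 2h and 12.0 at 3D. They were above the 0h mean at 4h, 12h and 1D, with 21.9, 33.1 and 22.8 CPM. From 2h to 2D the value was -1.07, and it was not called when fitted on those groups alone (adjusted p = 0.117). MYB94 differed from 0h with 1.69 (2h), 1.49 (12h), 2.10 (1D), 1.03 (2D) and 2.42 (3D), where the value at 2D was 0.966 with RLE size factors and 0.932 to 0.987 without any of 4 single libraries.

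MYB96 differed by -1.08 from 0h to 2h, or -0.828, -0.982 and -0.913 without replicate 3 of the mutant at 0h, replicate 2 of the mutant at 2h or replicate 3 of wild type at 0h, and by 1.70 from 2h to 3D. MYB30 differed from 0h with -1.03 (4h), -2.02 (12h), -1.66 (1D) and -1.46 (2D), and from 2h to 2D by -1.19. The MYB30 value at 4h was -0.862 to -0.997 without any of 6 single libraries, and that from 2h to 2D was -0.978 without replicate 3 of wild type at 2D. DEWAX differed by 1.39 from 0h to 2h, by -1.18 from 0h to 2D, by -2.57 from 2h to 2D and by -1.09 from 2h to 3D. The DEWAX value from 0h to 2D was -0.977 without replicate 2 of the mutant at 0h.

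SHN3 differed by 2.30 from 0h to 2D and by 3.27 from 0h to 3D, and the 2D call was lost without most single libraries (adjusted p from 0.051 to 0.10). The fitted values of SHN2, 9.17 at 4h and 6.32 at 2D, depend on the prior count, since SHN2 had 0 counts in the 3 mutant libraries of 0h, and are no measure of size. The SHN2 call at 2D was lost with counts divided by the spacing (edgeR adjusted p = 0.0509). It was also lost without any single mutant library of 0h (0.065 to 0.076) and without some other single libraries. In rbohE, MYB94 differed by 1.19 and DEWAX by 1.03 from 0h to 1D.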

How the results depend on the processing

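Leaving aside the change of reference to 1D, no called value of a regulator changed sign under an alternative. Of 132, 97 kept their call in every alternative that tested the gene. A gene left untested by a filter was not counted as losing its call. The stricter filter, with a minimum count of 50, gave 43 calls in place of 44 in wild type. Against their own 0h it gave 12 in place of 15 in gpat4 gpat8 and 16 in place of 18 in rbohE. It gave 15 in place of 16 for gpat4 gpat8 against wild type, and 19 in place of 21 of its interactions. With 1D as the reference the contrast itself differs, and MYB16 at 12h, called lower against 0h (-1.33), was called higher (1.04). Adjusted p alone, with no minimum fold, called 28 of 48 pairs in place of 15 in gpat4 gpat8 and 31 of 40 in place of 18 in rbohE against their own 0h. Against wild type it called 25 of 56 in place of 16 for gpat4 gpat8 and 12 of 48 in place of 3 for rbohE. It also gave 6 rbohE interactions in place of 2, 24 wild type steps in place of 8, and 9 gpat4 gpat8 interactions from 2h in place of 5. The share of all genes called by adjusted p alone is not given here, so these counts do not set the regulators apart from other genes. A fit of only the groups compared gave 5 rbohE interactions and 3 gpat4 gpat8 interactions from 2h. Taking the gpat4 gpat8 interaction from 2h gave 5 calls in place of 21, over 3 times in place of 6. Wild type against 1D gave 22 in place of 44.

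With 1 library left out, calls ranged from 38 to 45 in wild type, 13 to 17 and 17 to 19 in gpat4 gpat8 and rbohE against their own 0h, 14 to 18 and 1 to 3 against wild type, 18 to 22 and 1 to 3 for the interactions, 7 to 10 for the steps and 3 to 6 from 2h. A replicate block gave 44, 16, 18, 15, 3, 21, 2, 9 and 5 calls in that order, with both interactions before the steps. The runs with 1 library left out kept part of the spread estimate of all libraries, so the removed library still counted in it. Same-numbered libraries of different groups were little more alike than differently numbered ones, with median correlations of 0.0148 against -0.00742. The correlations of same-numbered libraries ran from -0.338 to 0.512, with 183 of 900 over 0.1. These values do not settle whether the numbers pair any libraries. SHN1 was among 3028 genes at 0 in all 75 libraries, and the reason for its 0 counts was not tested.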
